A study of Mus musculus with 10 samples.

Results

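A set of 9 genes of iron storage, iron transport and haemoglobin scavenging was followed across all libraries. They were given by name as a group (Fth1, Ftl1, Ncoa4, Tfrc, Slc11a1, Slc40a1, Hp, Cd163 and Slc48a1), were matched by symbol to the Ensembl identifiers of the table, and make up 9 of its 28185 genes. The rule that names them uses no measured value, although the group was proposed with earlier results of these data known. All 9 passed the filter of a mean of at least 10 normalized counts, which 11549 genes passed.

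RNA was sequenced from Ly6G+ cells, which were enriched with anti-Ly6G microbeads on magnetic columns from male C57Bl/6J mice aged 12 to 16 weeks, 3 days after their left coronary artery was ligated (day 3 of MI). The 4 groups were MI (n = 3 libraries) and MI + MSC (n = 3) from the digested left ventricle below the ligature, and Blood (n = 2) and Blood + MSC (n = 2) from peripheral blood. In the MSC groups, syngeneic mouse mesenchymal stromal cells had been injected under the skin at 3 sites soon after ligation. Every mouse had an infarct, so the Blood groups are circulating cells of infarcted mice and no sham library was analysed here. Libraries are named by their group and library number. By the study's methods a single animal was the experimental unit. The labels do not tie libraries to animals, nor say which heart and blood libraries share a mouse, and p-values measure the spread between these libraries. The batch field of the labels has the same value for all libraries of a group, so batch and group cannot be told apart.

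Iron in excess of need is kept inside ferritin, a shell of heavy and light chains, and is released when ferritin is carried to the lysosome. Cells take up transferrin-bound iron through the transferrin receptor and release iron through ferroportin, the only known mammalian iron exporter. Phagocytes also recover iron from haemoglobin, which haptoglobin binds in plasma and the receptor CD163 takes up. Several of these transcripts carry an iron-responsive element, an RNA stem-loop to which iron regulatory proteins bind when iron is scarce, blocking translation from a 5′ UTR and stabilizing the transcript from a 3′ UTR.

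The iron-responsive elements are shown because they split the members into storage and export on the one side and uptake on the other. The search looked on the transcript's strand of annotated UTRs for the loop CAGTGN with 5 bases on each side that can pair with each other (G-U pairs allowed) and an unpaired C before the stem, and the loop is in capitals. The sequences are from the mouse genome GRCm39 with GENCODE gene models, and each lies within a single exon.
Fth1, 5′ UTR, chr19:9960097-9960123, plus strand: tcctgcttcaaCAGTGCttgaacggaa
Ftl1, 5′ UTR, chr7:45109204-45109230, minus strand: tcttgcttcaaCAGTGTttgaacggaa
Slc40a1, 5′ UTR, chr1:45964626-45964652, minus strand: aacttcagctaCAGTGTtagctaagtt
Tfrc, 3′ UTR, chr16:32450038-32450064, plus strand: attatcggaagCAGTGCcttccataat
Tfrc, 3′ UTR, chr16:32450417-32450443, plus strand: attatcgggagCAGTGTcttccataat
Tfrc, 3′ UTR, chr16:32450482-32450508, plus strand: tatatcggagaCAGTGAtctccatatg
Tfrc, 3′ UTR, chr16:32450529-32450555, plus strand: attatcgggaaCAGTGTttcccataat
The motif was found in a 5′ UTR of 47 of 21575 coding genes (0.218%) and in a 3′ UTR of 163 (0.756%). Tfrc held 4 copies, the most in any transcript, and was the only gene with more than 1 in a 3′ UTR. The other 5 members held no match, which says only that these letters are not in their annotated UTRs. A match is a description of the letters, and RNA levels do not measure translation.

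The depth was uneven. The shallowest library, MI 13, held 148594 recovered reads and the deepest, Blood + MSC 24, held 8602711, and a single read weighed 8.40 normalized counts for MI 13, 7.07 for Blood 21 and between 0.168 and 2.30 elsewhere. The labels call the cells neutrophils. All 12 neutrophil markers were detected in every library except MI 13, which lacked 1, but their summed level was 2547 to 13564 normalized counts in the cardiac libraries and 16764 to 53435 in blood, and Ly6g itself had 2 to 35 reads per cardiac library. The 5 cardiomyocyte markers summed to 1155 to 9371 in the cardiac libraries and to at most 3.68 in blood. The 8 macrophage markers summed to 2160 to 9648 in cardiac libraries and 5338 to 7532 in blood, the 5 resident macrophage markers to 429 to 1179 and 1367 to 1865, and the 8 erythroid markers to 52.7 to 311 and 488 to 9563. Fewer cells of a type and less RNA per cell cannot be told apart in such bulk samples.

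Ferritin transcripts were abundant in every library. Fth1 (ENSMUSG00000024661, chr19:9957911-9962462) encodes the heavy chain, which oxidizes ferrous iron, and had normalized counts of 874, 1498 and 1602 for MI (libraries 13, 19 and 20), of 2429, 2778 and 1416 for MI + MSC (15, 17 and 18), of 1349 and 840 for Blood (21 and 22) and of 1318 and 818 for Blood + MSC (23 and 24). The highest values were MI + MSC 15 and 17, while MI + MSC 18 lay within the range of the MI libraries. Ftl1 (ENSMUSG00000050708, chr7:45107367-45109308) encodes the light chain, which promotes formation of the iron core. It had normalized counts of 1513, 2959 and 2419 for MI, of 4582, 4881 and 3663 for MI + MSC, of 6331 and 3385 for Blood and of 2804 and 2332 for Blood + MSC. Every MI + MSC library was above every MI library, whereas both Blood + MSC libraries were below both Blood libraries, and the highest value of all was the shallow library Blood 21. Ncoa4 (ENSMUSG00000056234, chr14:31881822-31902234), the cargo receptor that carries ferritin to the lysosome, had normalized counts of 101, 123 and 125 for MI, of 172, 147 and 169 for MI + MSC, of 247 and 403 for Blood and of 289 and 316 for Blood + MSC. All blood libraries were above all cardiac libraries for Ncoa4, and within the heart the MI + MSC libraries were above the MI libraries.

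Ferritin has processed copies in the genome, so reads of the parent genes could be split. The annotated copies Ftl1-ps1 and Fth-ps2 held 0.404% to 3.33% of the Ftl1 reads and 0% to 1.39% of the Fth1 reads per library. Adding them to the parent genes changed no call.

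Uptake and phagosomal transport were represented by Tfrc and Slc11a1. Tfrc (ENSMUSG00000022797, chr16:32427556-32451612), the transferrin receptor, had normalized counts of 84.0, 118 and 90.1 for MI, of 144, 209 and 111 for MI + MSC, of 70.7 and 51.3 for Blood and of 64.9 and 72.7 for Blood + MSC. Every cardiac library was above every blood library, and MI + MSC 18 lay within the MI range. Slc11a1 (ENSMUSG00000026177, chr1:74414303-74425448) encodes the metal transporter of phagosomes, which moves iron and manganese out of them, and had normalized counts of 210, 217 and 217 for MI, of 343, 223 and 245 for MI + MSC, of 233 and 353 for Blood and of 427 and 368 for Blood + MSC. It had the narrowest spread of the members in MI, with a mean of 215 ± 4.10 (SD, n = 3), and the MI + MSC and Blood libraries overlapped.

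Slc40a1 (ENSMUSG00000025993, chr1:45947211-45965683), which encodes ferroportin, showed a wide range. It had normalized counts of 67.2, 199 and 199.7 for MI, of 545, 292 and 214 for MI + MSC, of 1152 and 1455 for Blood and of 852 and 698 for Blood + MSC. The 4 groups did not overlap and were ordered MI, MI + MSC, Blood + MSC and Blood, although MI 13 rested on 8 reads and MI + MSC 18 lay just above the highest MI library.

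The haemoglobin genes were mostly higher in blood. Hp (ENSMUSG00000031722, chr8:110301759-110305804), haptoglobin, which neutrophils also store in granules, had normalized counts of 92.4, 422 and 303 for MI, of 324, 473 and 142 for MI + MSC, of 1872 and 2804 for Blood and of 1914 and 1333 for Blood + MSC. The blood libraries were all above the cardiac ones, and the MI and MI + MSC libraries overlapped. Cd163 (ENSMUSG00000008845, chr6:124281606-124307560), the haptoglobin-haemoglobin receptor of macrophages, had normalized counts of 25.2, 124 and 116 for MI, of 17.6, 41.3 and 46.1 for MI + MSC, of 233 and 151 for Blood and of 274 and 164 for Blood + MSC. MI 19 and MI 20 lay above the MI + MSC libraries, and MI 13, with 3 reads, lay among them. Slc48a1 (ENSMUSG00000081534, chr15:97676401-97690573), which carries haem out of the phagolysosome, ran the other way, with 143, 239 and 182 for MI, 525, 181 and 369 for MI + MSC, 148 and 121 for Blood, and 107 and 118 for Blood + MSC. MI + MSC 15 and 18 were the highest Slc48a1 values, and MI + MSC 17 fell within the MI range.

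**Figure D1:**
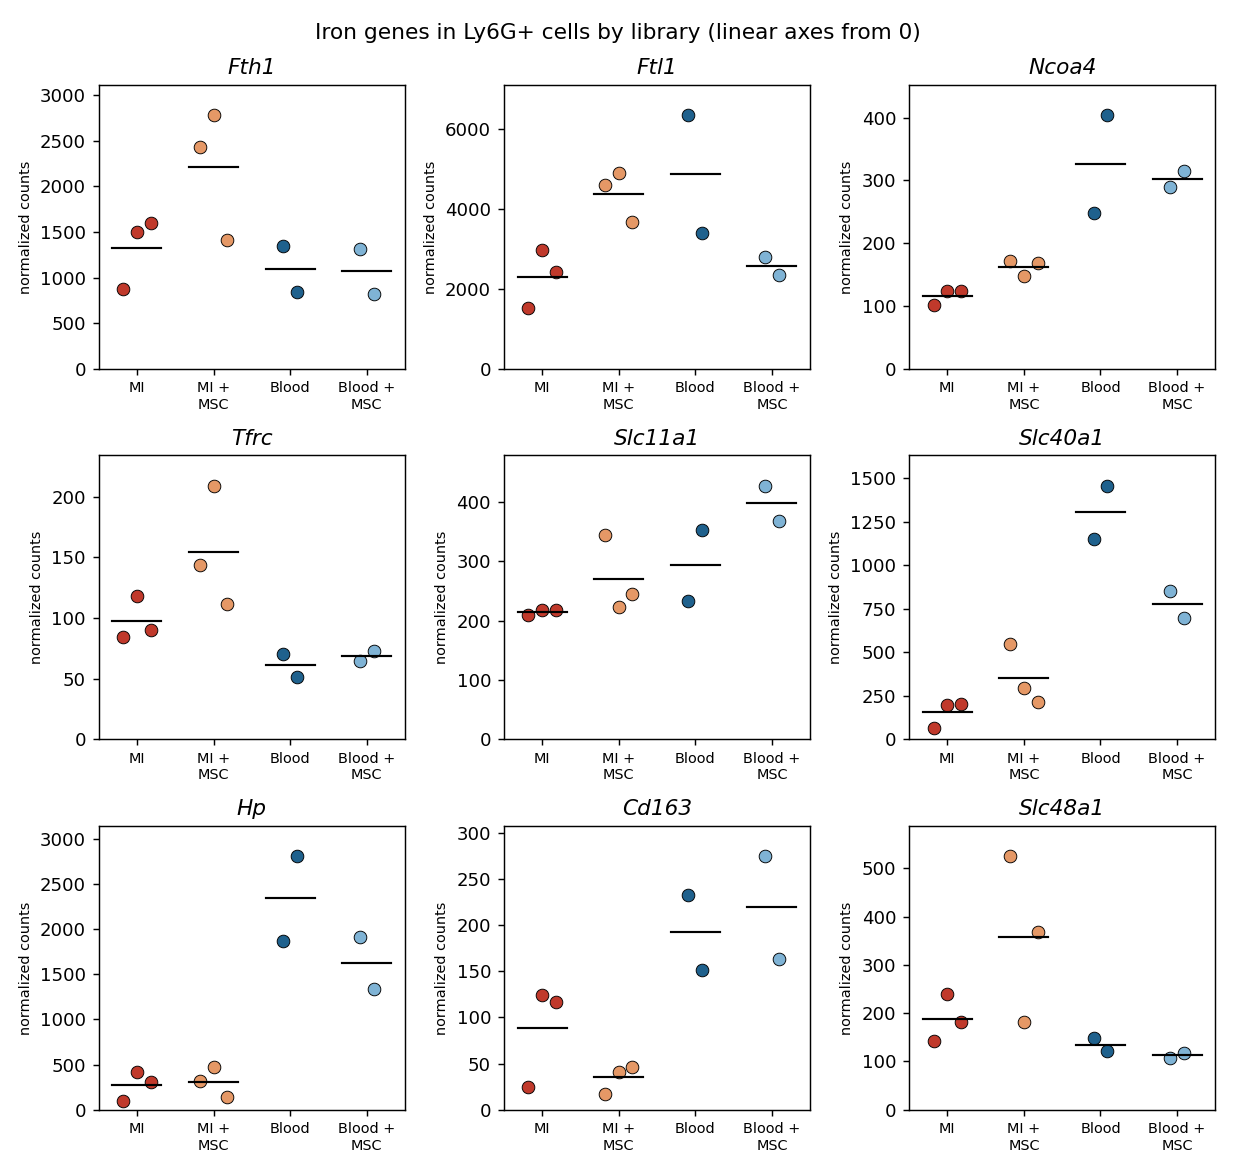
Normalized counts (linear axes from 0) of the 9 genes in each library, with points for libraries and a line at the group mean. For Slc40a1 the groups do not overlap (MI 67.2 to 199.7, MI + MSC 214 to 545, Blood + MSC 698 to 852, Blood 1152 to 1455), and for Hp the blood libraries (1333 to 2804) lie above all cardiac libraries (92.4 to 473).

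Levels of different genes were compared per kilobase of annotated exon. Ftl1 had the highest mean level per kilobase in all 4 groups, at 1713 for MI, 3263 for MI + MSC, 3623 for Blood and 1915 for Blood + MSC. Fth1 came next in the heart, with 376 in MI and 627 in MI + MSC, and Hp came next in blood, with 1374 in Blood and 954 in Blood + MSC. In MI the order then ran Hp (160), Slc48a1 (64.4), Slc11a1 (53.9), Slc40a1 (16.5), Cd163, Tfrc (13.8) and Ncoa4 (11.6). The libraries overlapped between Hp and Slc48a1, between Slc48a1 and Slc11a1, and between each neighbouring pair from Slc40a1 to Ncoa4. Slc40a1 had rank 6 of 9 in both heart groups, rank 4 in Blood (138) and rank 5 in Blood + MSC (82.2), and Tfrc was last in both blood groups (8.63 and 9.73). With the longest transcript as length, the first 3 ranks were the same in every group, and the order of the lower ranks moved.

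The comparison of MI with Blood asked how the iron genes of Ly6G+ cells differ between the infarcted ventricle and the circulation. Transcripts for iron export, haemoglobin binding and ferritin turnover were lower in the heart. Slc40a1 fell by a log2 fold change of -3.20 (SE 0.51, 95% confidence interval -4.31 to -2.09, limma with Benjamini-Hochberg adjusted p = 0.00112), Hp by -3.32 (SE 0.63, -4.70 to -1.93, adjusted p = 0.00313) and Ncoa4 by -1.43 (SE 0.28, -2.05 to -0.81, adjusted p = 0.00369). All fold changes are on the scale log2(normalized count + 2), and a gene was called where its adjusted p was under 0.05 and its log2 fold change was 0.5 or more in size. Of the 9 genes, 3 were called lower and 0 higher, against 13.5% of all tested genes called lower and 21.2% called higher.

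The other 6 did not pass in that comparison. Cd163 gave -1.36 (adjusted p = 0.112 by limma), Ftl1 -1.06 (0.139), Tfrc 0.66 (0.131), Slc48a1 0.45 (0.408), Slc11a1 -0.41 (0.296) and Fth1 0.27 (0.689). The groups did not overlap for 6 genes lower in MI and for 1 higher (Tfrc), where 23.6% and 31.6% of all tested genes were separated in those directions. The median over the members was -1.06, against 0.15 over all tested genes. Scaling by library size moved the median of all genes by 0.49 in this comparison, and Tfrc was then called higher in MI beside the other 3. The neutrophil markers were lower in MI as well, 10 of 12 by the same call. So were 3 of 4 tested resident macrophage, 4 of 4 tested platelet and 2 of 7 tested erythroid markers. Cardiomyocyte markers (5 of 5) and endothelial markers (3 of 4) were called higher. The part of all these markers in the Hp, Slc40a1, Ncoa4 and Cd163 values was not tested. Without MI 13 the Cd163 difference was -0.64 and the Hp difference -2.67, with Hp still called.

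Between MI + MSC and Blood + MSC the same question was asked in MSC-treated mice. Cd163 was lower in the heart (log2 fold change -2.64, SE 0.63, 95% confidence interval -4.01 to -1.26, limma adjusted p = 0.0189), as was Hp (-2.51, SE 0.63, -3.89 to -1.12, adjusted p = 0.0238). Slc48a1 was higher (1.52, SE 0.41, 0.63 to 2.42, adjusted p = 0.0309), and Tfrc was higher (1.10, SE 0.32, 0.39 to 1.81, adjusted p = 0.0437). Thus 2 members were called higher and 2 lower, against 8.23% and 5.85% of all tested genes.

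Ncoa4 gave -0.89 (limma adjusted p = 0.0577), Slc40a1 -1.25 (0.12), Fth1 1.03 (0.161), Slc11a1 -0.57 (0.213) and Ftl1 0.76 (0.353), none of which passed. The libraries of the 2 groups did not overlap for any of the 9 genes, 4 higher and 5 lower in the heart, where 33.8% and 29.7% of all tested genes were separated. The members' median was -0.57 and that of all genes 0.09. Tfrc was not called with TMM scaling, edgeR or voom, and Ncoa4 was called with each of these. Leaving out MI + MSC 15 left 0 members called, where 8.22% of all tested genes were called. Leaving out MI + MSC 18 left 2 (Cd163 and Tfrc), where 6.2% of all genes were called. Leaving out MI 13 gave 6, where 22.9% were called. The 4 calls were lost too without Blood + MSC 23 or Blood + MSC 24, fits that leave 1 library in that group. The Tfrc call was also lost without MI 19, MI 20 or MI + MSC 17, so in 6 of the 10 fits that left out a library. Of the neutrophil markers 3 of 12 were lower by the same call, of the resident macrophage markers 2 of 4 tested and of the erythroid markers 6 of 7, and their part in the Cd163 and Hp values was not tested. Called higher in the heart were 5 of 5 cardiomyocyte, 3 of 4 endothelial, 1 of 5 fibroblast, 1 of 4 monocyte and 1 of 8 macrophage markers, and their part in the Slc48a1 and Tfrc values was not tested.

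**Figure D2:**
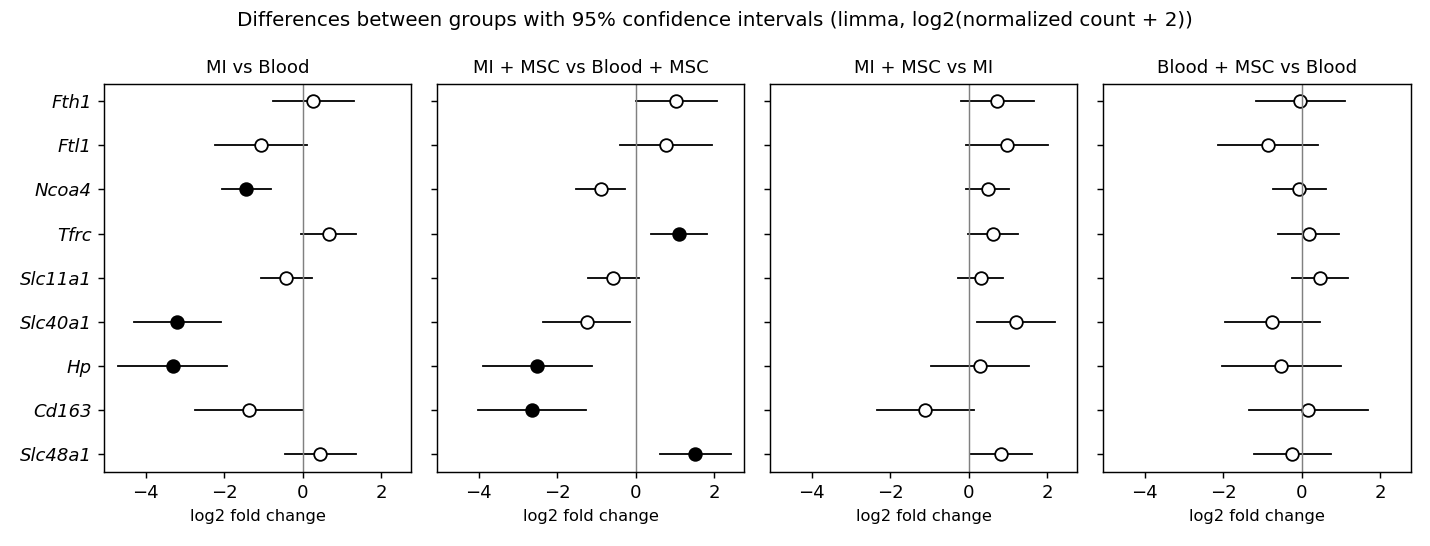
Log2 fold changes of the 9 genes in 4 comparisons, on log2(normalized count + 2), with 95% confidence intervals from limma, where filled points passed both thresholds. Slc40a1, Hp and Ncoa4 are filled for MI against Blood, Cd163, Hp, Slc48a1 and Tfrc for MI + MSC against Blood + MSC, and none for the comparisons with and without MSC.

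In the heart, MI + MSC was compared with MI to ask what MSC treatment changed. No member passed, and 0% of all tested genes were called by limma, with 925 genes at an unadjusted p under 0.05. Of the 9 values, 8 were positive. Slc40a1 had the largest difference, 1.21 (95% confidence interval 0.22 to 2.20, unadjusted p = 0.0211, limma adjusted p = 0.588), and it was 0.70 without MI 13. Ftl1 gave 0.97 (-0.07 to 2.02, adjusted p = 0.635 by limma), Slc48a1 0.82 (0.02 to 1.63, 0.618), Fth1 0.73 (-0.20 to 1.65, 0.653), Tfrc 0.62 (-0.01 to 1.26, 0.619) and Ncoa4 0.48 (-0.07 to 1.04, 0.647). Slc11a1 gave 0.30 and Hp 0.29, and Cd163 alone was negative at -1.10 (-2.34 to 0.13, 0.641), or -1.83 without MI 13. Except for Slc40a1 and Slc48a1 the intervals of these genes include 0, and no difference passed after adjustment over all genes.

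The members' median in the heart was 0.62, against -0.01 over all tested genes. For Ftl1, Ncoa4, Slc11a1 and Slc40a1 all MI + MSC libraries lay above all MI libraries, and for 0 members below, where 7.05% and 9.6% of all genes were separated in those directions. Of the 8 macrophage markers 7 were positive with a median of 0.81 and 0 called. Of the 4 tested resident macrophage markers 3 were negative and 1 positive, with Lyve1 at -1.65. Of the 12 neutrophil markers 7 were negative and 5 positive, and Ly6g (-1.18) lay lower in every MI + MSC library. All 5 cardiomyocyte markers were negative with a median of -1.38, and all 4 endothelial markers lay lower in every MI + MSC library. The part of all these markers in the members' values was not tested.

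In blood, Blood + MSC was compared with Blood. Again 0% of all tested genes were called by limma, no member passed, and 848 genes had an unadjusted p under 0.05. Ftl1 gave -0.86 (95% confidence interval -2.14 to 0.42, limma adjusted p = 0.749), Slc40a1 -0.75 (-1.96 to 0.47, 0.776), Hp -0.52 (adjusted p 0.899) and Slc11a1 0.46 (-0.25 to 1.18, 0.759). The remaining 5 lay between -0.24 (Slc48a1) and 0.18 (Tfrc). Slc11a1 was separated upward, as were 21% of all genes, and Ftl1, Slc40a1 and Slc48a1 downward, as were 15.4%. Blood 21 carried a platelet marker sum of 22722, against 555 to 1024 in the other blood libraries, and without it the Ftl1 difference was -0.40. Of the neutrophil markers 11 of 12 were negative with a median of -1.64 and 0 called. The part of these markers in the Ftl1 and Hp values was not tested.

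The interaction asked whether the MSC difference in the heart differed from that in blood. It was largest for Slc40a1 (1.95 on the log2 scale, SE 0.71, unadjusted p = 0.0189, limma adjusted p = 0.63) and Ftl1 (1.83, SE 0.75, unadjusted p = 0.033, limma adjusted p = 0.63). Neither passed, and 0% of all tested genes passed, with 838 at an unadjusted p under 0.05. DESeq2 on the recovered reads gave an adjusted p to 1409 genes for the interaction and called 1.56% of them. Ftl1 was the only member called, and a member without an adjusted p was not tested by it.

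Ratios within a library do not depend on its scaling. Tfrc over Slc40a1 per kilobase, uptake over export, was 1.67, 0.792 and 0.601 for MI, 0.352, 0.955 and 0.694 for MI + MSC, 0.0818 and 0.0470 for Blood, and 0.102 and 0.139 for Blood + MSC. All cardiac libraries were above all blood libraries, and the MI and MI + MSC libraries overlapped. Fth1 over Ftl1, heavy over light chain, was 0.220, 0.193 and 0.252 for MI, 0.202, 0.217 and 0.147 for MI + MSC, 0.0812 and 0.0945 for Blood, and 0.179 and 0.134 for Blood + MSC. The Blood libraries had the lowest ratios, and MI + MSC 18 fell between the Blood + MSC libraries.

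**Figure D3:**
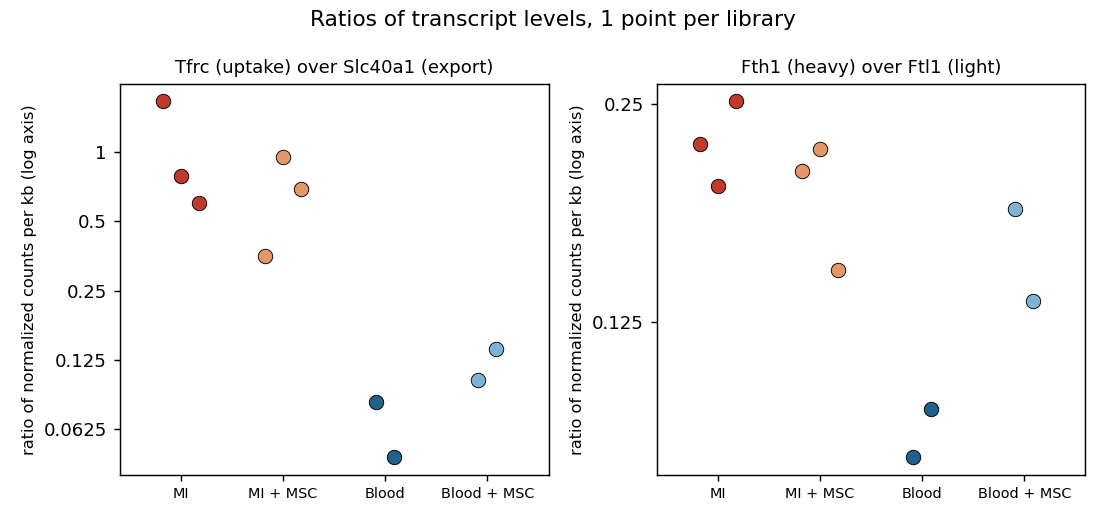
Ratios of normalized counts per kilobase in each library on log axes, Tfrc over Slc40a1 and Fth1 over Ftl1, with 1 point per library. Tfrc over Slc40a1 runs from 0.352 to 1.67 in cardiac libraries and from 0.0470 to 0.139 in blood, and Fth1 over Ftl1 is lowest in Blood, at 0.0812 and 0.0945. The value of 1.67 is MI 13, with 10 reads of Tfrc and 8 of Slc40a1, and the length is that of all annotated exons.

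A wider list of 46 iron and haem genes put the members in context, of which 44 were in the table and 35 passed the filter. Between MI and Blood 10 were called higher and 8 lower, with a median of -0.21. Of all tested genes, 21.2% were called higher and 13.5% lower. Among genes of haem handling, Hmox1, which breaks haem down, rose from 128 normalized counts in Blood to 851 in MI (log2 fold change 2.59, limma adjusted p = 0.00472). Lrp1, the receptor for haem bound to haemopexin, rose by 2.43 (adjusted p = 0.00206) and Abcg2, a porphyrin exporter, by 3.46 (adjusted p = 0.00517), although Abcg2 had 0 reads in 1 Blood library.

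The regulator Fbxl5, which targets iron regulatory protein for degradation when iron is plentiful, was lower in MI, with 735 ± 275 (SD, n = 3) against 3721 ± 566 (SD, n = 2) in Blood (-2.41, limma adjusted p = 0.00699). Trf, transferrin, measured 99.1 ± 1.90 against 401 ± 27.9 (-1.99, adjusted p = 0.00027). Steap4, a metalloreductase, was lower by the same test (-3.33, adjusted p = 0.000722), as was Lcn2, which sequesters bacterial siderophores (-3.47, adjusted p = 0.00623). Lcn2 is also on the neutrophil marker list.

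Cp, the plasma ferroxidase, was higher in MI (2.82, limma adjusted p = 0.0019), and Steap2, another metalloreductase, was higher at a low level of 15.5 against 2.27, with 0 reads in 1 Blood library (2.25, adjusted p = 0.032). Steap2 was not called with edgeR, DESeq2 or voom, nor by limma without MI 13, MI 19 or MI 20. Hjv, a co-receptor in the control of hepcidin that is known from muscle, averaged 49.5 in MI and had 0 reads in both Blood libraries, so that MI was at least 4.27-fold higher, taking 3 reads per Blood library as the floor. Called higher in MI too were 5 of 5 cardiomyocyte, 3 of 4 endothelial, 2 of 5 fibroblast and 1 of 4 monocyte markers, and their part in the Hjv, Abcg2, Lrp1, Cp, Steap2 and Hmox1 values was not tested. Without MI 13, 9 of the list were called higher and 7 lower, where 30.5% of all tested genes were called. With voom the counts were 3 and 6, where 10.6% of all genes were called.

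**Figure D4:**
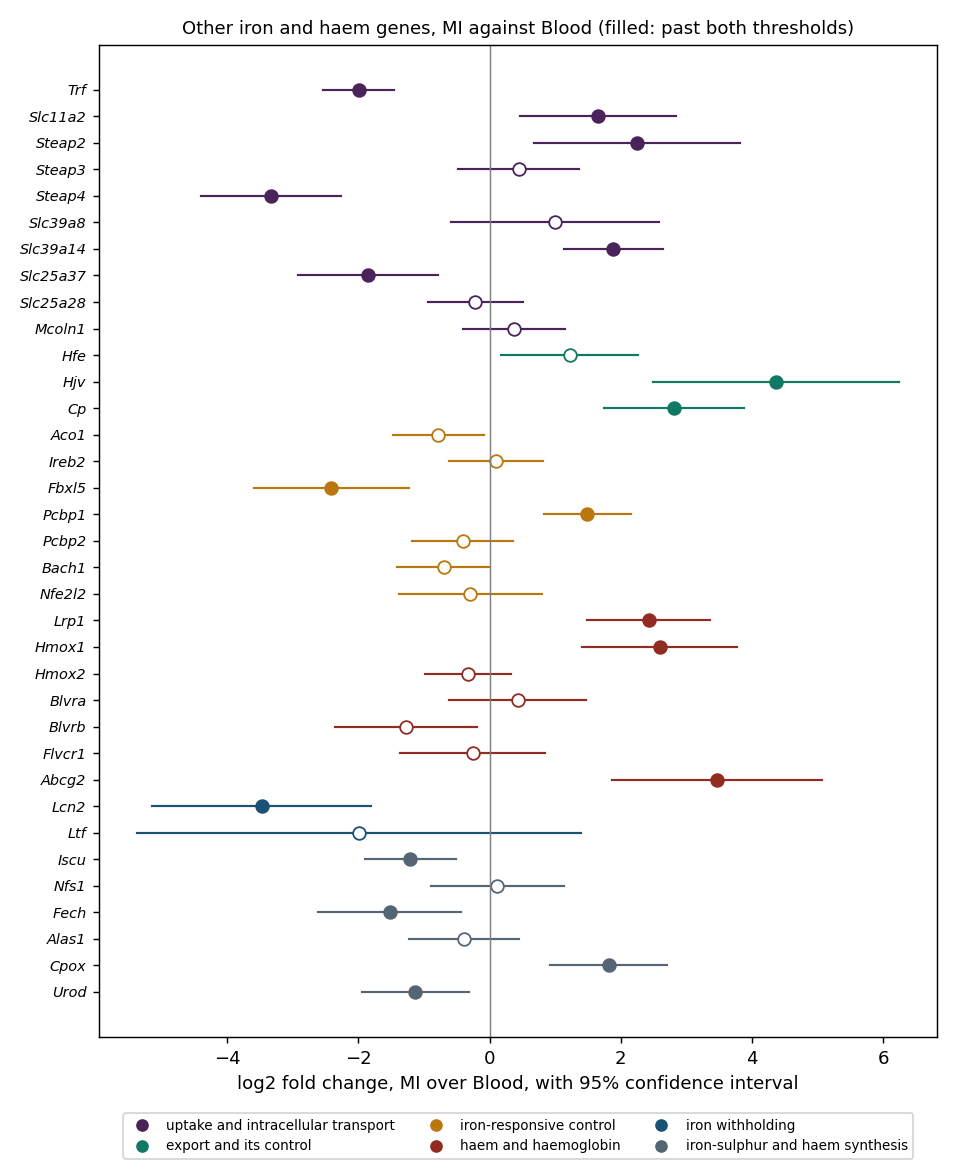
Log2 fold changes of the 35 tested genes of the wider iron list, MI over Blood, with 95% confidence intervals and colours for their role, where filled points passed both thresholds. There are 10 filled points on the higher side and 8 on the lower side, and the point for Hjv depends on the pseudocount, since both Blood libraries had 0 reads.

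Between MI + MSC and Blood + MSC, 2 of the wider list were higher and 5 lower, against 8.23% and 5.85% of all tested genes. Hmox1 (3.05, limma adjusted p = 0.00431) and Slc39a14, an importer of iron not bound to transferrin (1.24, adjusted p = 0.0345), were higher in the heart. Slc39a14 was not called with edgeR, nor by limma without MI 19, MI + MSC 15 or MI + MSC 18. Steap4 (-2.99, limma adjusted p = 0.00293), Lcn2 (-2.80, 0.0327), Fbxl5 (-2.15, 0.0236), Trf (-2.15, 0.000541) and Fech, which inserts iron into haem (-1.84, 0.0324), were lower. Erythroid markers were lower in the heart too (6 of 7), and their part in the Fech value was not tested. Without MI 13 the counts were 7 and 6, where 22.9% of all tested genes were called. Without MI + MSC 15 they were 1 and 2, where 8.22% were called. In neither comparison with and without MSC was a gene of the list called by limma on all libraries, with medians of 0.04 in the heart and 0.16 in blood. Without Blood 22, which leaves 1 library in Blood, limma did call genes of the list in blood, as it did over all genes.

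The genes whose pattern was most like a member's were found by Pearson's r over the 10 libraries on log2(normalized count + 2), among 5472 coding genes with a mean of at least 50. These values are descriptions, since the libraries share their groups and depth. Fth1 was followed most closely by Slc7a11 (0.98), Ccl3 (0.98) and Atf4 (0.98), and Ftl1 by Cops9 (0.95), Atp6v1f (0.95) and H2-K1 (0.94). Ncoa4 went with Iqgap2 (0.98), Ubl7 (0.98) and Ptpn1 (0.97), and Slc11a1 with Tbk1 (0.97), Smad2 (0.96) and Rps27l (0.95). Slc40a1 went with Cdc42ep3 (0.99), Selenok (0.98) and Tmem164 (0.98), and Hp with Pi16 (0.99) and Ripor2 (0.99). Tfrc went with Dpm3 (0.94), Rab20 (0.94) and Tnf (0.94), Slc48a1 with Nxpe5 (0.95), Ifnar2 (0.94) and Vat1 (0.93), and Cd163 with Lyve1 (0.95), a marker of resident macrophages, and Fcgrt (0.92). Among the members themselves, r over the 10 libraries was 0.92 for Slc40a1 with Ncoa4 and with Hp, 0.85 for Fth1 with Tfrc, and 0.59 for Fth1 with Ftl1.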

How the data were processed

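RNA-seq of 10 libraries of Ly6G+ cells was used. According to the methods and the submitters' processing notes, the authors trimmed reads with Trimmomatic, removed duplicates with Picard, aligned with STAR to GRCm39, counted by strand with featureCounts, filtered out mitochondrial reads and used DESeq2 for normalization. Deposited values are a signal, namely reads per gene divided by the library's DESeq2 size factor. The table named as raw counts held the same values (281850 of 281850) and was not used. In every library 100% of values were whole multiples of 1 read (tolerance 0.01 of a read), which gave the recovered reads. Gene models and sequences were from GENCODE for GRCm39, which held 27906 of the 28185 identifiers.

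limma (3.58.1, with intensity trend) was fitted to log2(normalized count + 2) of 11549 genes with a mean of at least 10, fitting a mean for each group to all 10 libraries, with Benjamini-Hochberg adjustment over all genes. A call required adjusted p under 0.05 and a log2 fold change 0.5 or more in size (for the interaction, adjusted p only). Alternatives were edgeR (4.0.16), DESeq2 (1.42.0) and voom on recovered reads, other scalings, pseudocounts and filters, and leaving libraries out. On simulated reads in the heart design, 200 genes differed by 2 on the log2 scale. There limma called 71 of them and 0 others, edgeR 119 and 1 other, and DESeq2 142 and 12 others. In the design of MI against Blood limma called 9 of the 200 and 0 others, edgeR 50 and 1 other, and DESeq2 96 and 17 others. In the data limma called 21.2% of tested genes higher and 13.5% lower between MI and Blood, far more than were changed in the simulation. The adjusted threshold depends on that share, so these counts do not give the sensitivity of the real comparison. All 9 members and, of the wider list, called genes (at most 10 per comparison by size) are named, with the 3 most similar genes per member, except that some of these are not reported here. The members and lists were chosen with earlier results of these data known. R 4.3.3 and Python 3.11.15 were used.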

Additional observations from a re-analysis of the deposited data

Results flagged for a closer look

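Ftl1 and Slc40a1 were flagged because their MSC differences separated the libraries in opposite directions in heart and blood. That separation is therefore the rule of selection and no finding. All MI + MSC libraries lay above all MI libraries, as for 7.05% of all tested genes. Both Blood + MSC libraries lay below both Blood libraries, as for 15.4%. Without Blood 21 the Ftl1 difference in blood was -0.40. The difference between the 2 effects on the log2 scale was 1.8283 for Ftl1 (unadjusted p = 0.0330, limma adjusted p = 0.63) and 1.9541 for Slc40a1 (unadjusted p = 0.0189, limma adjusted p = 0.63), so neither passed after adjustment over all genes. Leaving out each library in turn gave 1.38 to 2.28 for Ftl1 and 1.44 to 2.25 for Slc40a1, and no leave-one-out fit called either.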

How the results depend on the processing

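Between MI and Blood the same 3 members (Hp, Ncoa4 and Slc40a1) were called with every library left out in turn and under every other alternative, with Tfrc added by library-size scaling and Ftl1 by DESeq2. Library-size scaling split all calls of that comparison into 3991 higher and 819 lower, against 2452 and 1556. The 4 calls between MI + MSC and Blood + MSC depended more on the setting, and so did the share of all genes called. DESeq2 called 7 members and 20.9% of all genes. With a cardiac library left out, 0 to 6 members and 6.2% to 22.9% of all genes were called. The members called were 0 in both comparisons with and without MSC under every alternative. For the interaction it was 1 (Ftl1) with DESeq2, which gave an adjusted p to 1409 genes and called 1.56% of them. Over all genes, DESeq2 called 77 genes in the heart and 165 in blood with MSC, edgeR 9 and 74, and voom 68 and 0, while without Blood 22 limma called 1504 in blood and 1086 in the interaction, none of them a member. Differences that did not pass changed sign as follows. Hp in the heart with MSC was -0.26 with voom and -0.36 without MI 13 and Blood 21 (-0.36 to 0.77 leaving out libraries). In blood with MSC, library-size scaling gave 0.26 for Fth1, 0.23 for Ncoa4 and 0.050 for Slc48a1; for Fth1, TMM gave 0.013, edgeR 0.20, voom 0.079 and the fit without MI 13 and Blood 21 0.31 (-0.38 to 0.31 leaving out libraries); Ncoa4 was 0.036 with edgeR and 0.26 with voom (-0.41 to 0.29); Cd163 ranged from -0.20 to 0.54 and Tfrc from -0.040 to 0.41. Between MI and Blood, Slc11a1 was 0.10 with library-size scaling and Fth1 ranged from -0.076 to 0.61. For the interaction, Slc11a1 was 0.12 without MI 13 and Blood 21 (-0.46 to 0.14) and Hp -0.13 with voom. The cause of these changes was not tested. The counts for the wider list under these alternatives were added after seeing the data. No paired analysis of heart and blood was possible because the labels do not say which libraries share a mouse. Groups held 2 or 3 libraries, and MI 13 (148594 reads) and Blood 21 (268860 reads) limit the precision of the low genes, with 3 reads of Cd163, 8 of Slc40a1 and 10 of Tfrc in MI 13.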
